A study of Mus musculus with 12 samples.

Results

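Interleukins, the tumour necrosis factor (TNF) superfamily and their receptors were described in the livers of fetal mice. The genes were all rows whose symbol began with Il, Tnfrsf or Tnfsf followed by a digit, or was Tnf, and 116 of the 30743 rows met that rule. The livers came from male C57BL/6 fetuses taken at 15 ± 0.5 days post coitum. In the control group (6 livers) dams ate a diet with 13.5 kcal% fat and in the HFD group (6 livers) a diet with 60 kcal% fat, in both cases for 12 to 14 weeks. Whole livers were used, so hepatoblasts, blood cells and stroma were measured together, and fewer cells of a type cannot be told apart from less RNA per cell. The value per gene was the average over all 12 libraries, in CPM, that is polyA RNA sequencing reads scaled to the depth of the library. It holds both diets, so the levels below describe these liver samples as a whole and not either diet.

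Interleukins are secreted signals that bring together the chains of a receptor. Many chains are shared: gp130 (Il6st) serves the IL-6 family, the common gamma chain (Il2rg) the IL-2 family and Il1rap most of the IL-1 family, and the assembled receptors act through JAK kinases and STATs or, in the IL-1 family, through MyD88. TNF family ligands bind as trimers; some of their receptors carry a death domain that engages TRADD or FADD, others bind TRAF adaptors, and decoy receptors take up ligand without signalling. The fetal liver at this stage is the main site of blood formation.

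The upstream sequence of 4 members is shown because it is compared between ligands and receptors below. Each is the 250 bases before the RefSeq start (GRCm38.p6), 5′ to 3′ on the gene's strand. The first pair are receptor genes with high listed levels, Il6st at chr13:112463820-112464069 (plus strand) and Tnfrsf1b at chr4:145246871-145247120 (minus strand), and capitals mark CpG dinucleotides.
Il6st: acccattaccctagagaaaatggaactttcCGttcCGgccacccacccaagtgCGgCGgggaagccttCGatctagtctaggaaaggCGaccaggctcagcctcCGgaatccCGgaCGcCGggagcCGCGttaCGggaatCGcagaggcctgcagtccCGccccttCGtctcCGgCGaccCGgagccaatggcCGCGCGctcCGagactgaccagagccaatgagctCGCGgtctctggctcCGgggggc
Tnfrsf1b: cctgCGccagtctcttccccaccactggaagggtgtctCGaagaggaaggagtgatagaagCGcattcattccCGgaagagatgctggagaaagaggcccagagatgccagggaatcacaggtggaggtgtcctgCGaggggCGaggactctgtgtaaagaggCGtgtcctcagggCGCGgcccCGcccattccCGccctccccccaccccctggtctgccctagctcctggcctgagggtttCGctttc
The second pair are ligand genes, Tnf at chr17:35202008-35202257 (minus strand) and Il1b at chr2:129371140-129371389 (minus strand), and capitals mark TATAAA.
Tnf: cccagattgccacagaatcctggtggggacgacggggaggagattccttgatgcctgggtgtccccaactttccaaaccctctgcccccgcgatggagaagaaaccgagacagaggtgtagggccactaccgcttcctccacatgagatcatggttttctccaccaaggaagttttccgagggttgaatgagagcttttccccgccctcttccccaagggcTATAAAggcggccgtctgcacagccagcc
Il1b: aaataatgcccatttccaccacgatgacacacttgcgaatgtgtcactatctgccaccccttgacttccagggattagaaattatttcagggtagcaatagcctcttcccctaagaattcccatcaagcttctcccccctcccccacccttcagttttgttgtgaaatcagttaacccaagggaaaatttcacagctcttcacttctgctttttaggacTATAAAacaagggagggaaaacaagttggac
The Il6st window held 26 CpG dinucleotides and the Tnfrsf1b window 12, and neither held TATAAA. Tnf had 10 and Il1b 2, and their TATAAA began 29 and 31 bases before the start.

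Across the 92 members with a RefSeq window, TATAAA was present on either strand in 13 of the 38 ligand windows (34.2%) and in 4 of the 54 windows of other members (7.41%). Of all 27025 genes with a window, 13.0% held it. Within 20 to 45 bases of the start, on the gene's strand, the motif stood in 8 ligand windows and in 1 of the others, against 2.36% of all genes. The median CpG count was 3 for ligands, 5 for the other members and 6 for all genes. By listed level, the median was 9 in the 22 windows of members above 1 CPM, 4 in the 48 with reads up to 1 CPM and 3 in the 22 without reads. The ranges overlapped: Il6ra, listed without reads, had 18, while Il18, above 1 CPM, had 1. Level and role were mixed: 18 of the 22 windows above 1 CPM were not of ligands, and 15 of the 22 without reads were. Among members other than ligands, the median was 9.5 in the 18 windows above 1 CPM and 4.5 in the 36 not above. In the 15 windows of ligands without reads it was 3, as for all ligands. Of the 32 members above 1 CPM, 22 had a window, and Il17ra and Il10rb did not. For members the RefSeq start nearest the annotated 5′ end of the gene was taken, and for all genes the first listed. The 2 sets were thus not chosen alike. Some member starts lay far from that end, with Il11ra1 at 60454 bases. A match is a description of the letters in the window, not of a factor bound there.

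**Figure D1:**
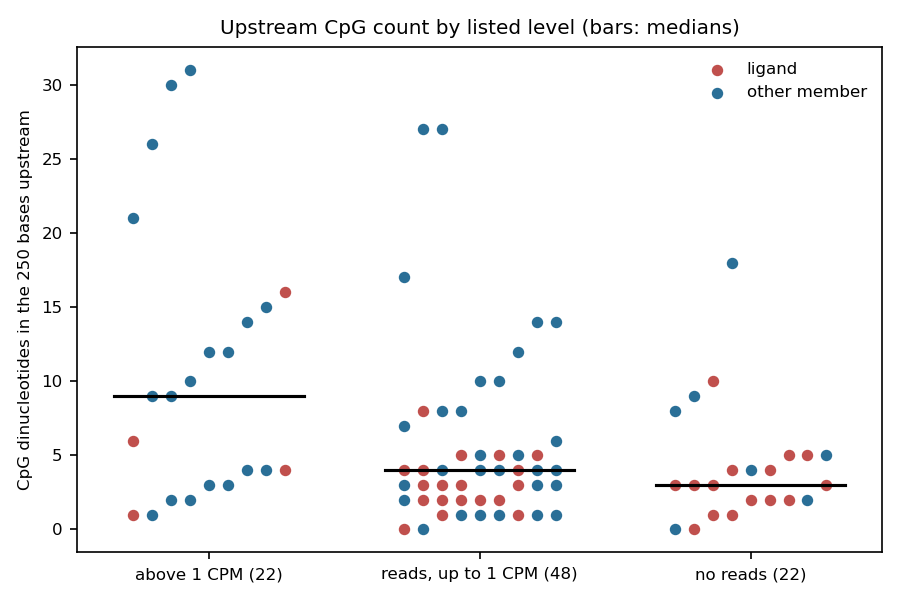
CpG dinucleotides in the 250 bases upstream of the RefSeq start (vertical axis) for the 92 members with a window, by listed level class, with ligands in red and other members in blue. Black bars are medians, which stood at 9, 4 and 3 from the highest class to the genes without reads.

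Of the 116 members, 89 had at least 1 read over the 12 libraries, as recovered from the averages, and 27 had none. The share with reads was 76.7%, against 63.9% of all rows and 77.6% of rows that matched an annotated protein-coding gene. It was thus close to the share of protein-coding rows. A read over all 12 libraries was worth 0.00635 CPM, and 0 reads allows a level of up to 0.0190 CPM by a floor of 3 reads over all libraries, for counting error only. The exact 95% interval, as used for the levels below, ends at 0.0234 CPM for 0 reads. The spread between livers is unknown, since the average is 1 value per gene. A level above 1 CPM was listed for 32 members (27.6%), against 31.9% of all rows and 43.7% of the 18722 rows that matched an annotated protein-coding gene. Only 10 members were above 10 CPM. The 6 highest took 74.9% of the 642 CPM summed over all members.

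A listed 0 is not evidence of absence in this table, because some genes that nearly every cell transcribes were also near 0. Cyclophilin A (Ppia) stood at 0.0127 CPM and Gusb, a lysosomal enzyme, at 0.160 CPM, while beta-actin (Actb) stood at 2581 CPM and Hprt at 298 CPM. Among protein-coding rows the median level was 0.719 CPM for genes with 1 annotated coding transcript, 0.272 CPM with 2, 0.415 CPM with 3 and 0.560 CPM with 4 or more. Of the receptor chains, 12 of the 17 with 1 coding transcript were above 1 CPM (70.6%), and 11 of the 35 with more (31.4%). Over all protein-coding rows these shares were 47.9% and 41.8%. Ligands went the other way, with 3 of 29 and 4 of 22. Whether the counting of reads per gene played a part was not tested. The liver label held for Alb (63314 CPM), Afp (54525 CPM) and Apoa1 (5096 CPM), but the hepatocyte factor Hnf4a was listed without reads. Of 4 acinar pancreas markers, 3 were above 1 CPM, with Ctrb1 highest at 12.4 CPM. Most members were listed below that level, and whether tissue of a neighbouring organ was carried along was not tested. Of the erythroid markers, Klf1 was at 692 CPM and Alas2, the first enzyme of heme synthesis in red cells, at 0.552 CPM, T and NK markers reached at most 0.519 CPM with 3 of 6 without reads, and B-lineage markers lay between 0.0253 and 14.2 CPM.

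Ligands were listed lower than receptor chains. Of the 51 interleukin and TNF ligands, 7 were above 1 CPM and 19 had no read. Of the 52 receptor chains, which leave out the decoys, 23 were above 1 CPM and 7 had no read. Above 1 CPM stood 13.7% of the ligands and 44.2% of the receptor chains, against 43.7% of protein-coding rows. Taken over all numbers of coding transcripts, the share of receptor chains was thus close to that of protein-coding rows. With 1 coding transcript it was 70.6% against 47.9%, and with more it was 31.4% against 41.8%. Of the 51 ligands 29 had 1 coding transcript, and of the 52 receptor chains 17. Reads were listed for 62.7% of ligands, 86.5% of receptor chains and 77.6% of protein-coding rows. Per kilobase of exon, and with genes without reads counted at 0, the median level was 0.0137 CPM per kilobase for ligands, 0.0924 for receptor chains and 0.116 for all protein-coding rows. The highest ligand by reads, Tnfsf14, had 8.29 CPM, and 9 receptor chains were above 10 CPM.

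**Figure D2:**
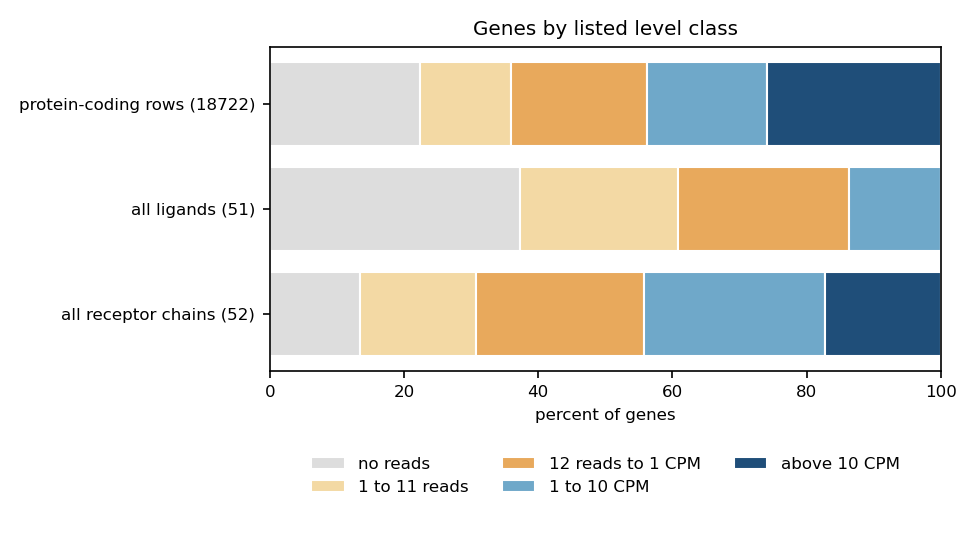
Percent of genes (horizontal axis) in 5 classes of listed level for 18722 protein-coding rows, the 51 ligands and the 52 receptor chains, from no reads over the 12 libraries (grey) to above 10 CPM (dark blue). No ligand was above 10 CPM, while 9 of the 52 receptor chains and 4850 of the 18722 protein-coding rows were.

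**Figure D3:**
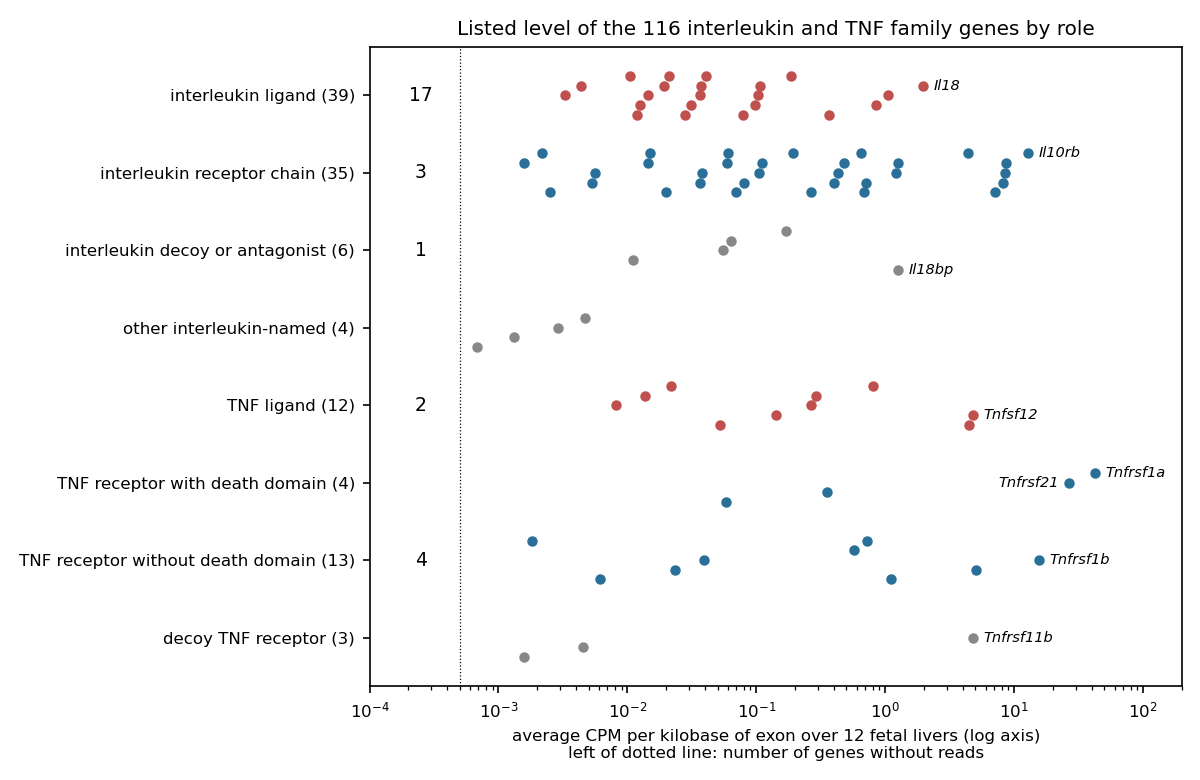
Average CPM per kilobase of exon (horizontal log axis) of every member with reads, 1 point a gene, by role, with the number of genes in each role in brackets and the number without reads left of the dotted line. Tnfrsf1a, Tnfrsf21 and Tnfrsf1b lie furthest to the right, and interleukin ligands hold 17 of the 27 genes without reads.

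The highest member was Tnfrsf1a, the main receptor of TNF, which carries a death domain (chr6:125349362-125362484, GRCm38, plus strand). It stood at 110.2 CPM from 17367 reads, or 42.5 CPM per kilobase (95% interval 41.9 to 43.2), above 94.7% of protein-coding rows. Tnfrsf21, known as death receptor 6 (chr17:43016555-43089189, plus strand), followed with 26.7 CPM per kilobase (interval 26.3 to 27.1). The other death domain receptors were far lower, since the TRAIL receptor Tnfrsf10b stood at 0.356 CPM per kilobase and Tnfrsf25 at 0.0586.

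Among the 13 TNF receptors without a death domain, Tnfrsf1b, the second TNF receptor (chr4:145213463-145246870, minus strand), was highest at 15.6 CPM per kilobase (interval 15.3 to 15.9). Tnfrsf14, the receptor of LIGHT, had 5.03 CPM per kilobase, Tnfrsf26 had 1.11, and RANK (Tnfrsf11a) had 0.724. The TWEAK receptor Tnfrsf12a stood at 0.570 CPM per kilobase. These 5 were above 1 CPM. At the other end, the BAFF receptor Tnfrsf13c had 2 reads, BCMA (Tnfrsf17) and OX40 (Tnfrsf4) had 5 each and CD30 (Tnfrsf8) had 1. TACI (Tnfrsf13b), GITR (Tnfrsf18), 4-1BB (Tnfrsf9) and Tnfrsf19 were listed without reads.

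Of the decoy TNF receptors, osteoprotegerin (Tnfrsf11b), which binds RANKL, stood at 4.80 CPM per kilobase (interval 4.60 to 5.01). Its ligand Tnfsf11 stood at 0.142 CPM per kilobase from 50 reads, and the signalling receptor Tnfrsf11a at 0.724. On this scale the decoy had the highest listed value of the RANKL system. Its interval did not meet those of the others, but the intervals cover counting error only and the spread between livers is unknown. Tnfrsf22 and Tnfrsf23, which neighbour Tnfrsf26 on chromosome 7, had 3 and 1 reads. They share 27.4% and 18.0% of their 50-base words with other genes, so reads could be lost or split between them.

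Interleukin receptor chains were the largest group of receptors, with 32 of 35 with reads and 15 above 1 CPM. Per kilobase, Il10rb, the chain shared by the receptors of IL-10, IL-22 and the lambda interferons (chr16:91406164-91425834, plus strand), led with 12.8 CPM per kilobase (interval 12.5 to 13.1). Il17ra, shared by IL-17 receptors (chr6:120463247-120487559, plus strand), had 8.58 (interval 8.43 to 8.74). Il22ra1, a chain of receptors of IL-22 and IL-24 (chr4:135728172-135752140, plus strand), had 8.49 (interval 8.21 to 8.78). These intervals overlapped, so the order of Il17ra and Il22ra1 is not resolved by counting error, and Il13ra1 at 8.18 (interval 7.95 to 8.41) overlapped Il22ra1 as well. gp130 (Il6st, chr13:112464070-112510086, plus strand) had 7.08 (interval 6.96 to 7.21), and the common gamma chain Il2rg, on the X chromosome, 4.37 (interval 4.16 to 4.58). By reads alone Il6st came before the rest at 78.6 CPM, and its annotated exons, at 11099 bases, are the longest of the 6. Il2rg shares 27.5% of its 50-base words with an overlapping annotated gene, and Il10rb shares 13.9% with many.

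Chains that serve as the specific partner of a shared chain were often lower. Against Il6st, the IL-27 chain Il27ra had 1.25 CPM per kilobase, the IL-11 chain Il11ra1 0.0694 and the IL-6 chain Il6ra was listed without reads. Il11ra1 shares 46.3% of its 50-base words with Gm13305 and Il11ra2, so its reads could be lost or split and its low value is uncertain. With Il2rg, the chains Il2rb and Il15ra stood at 0.682 and 0.399 CPM per kilobase. Il21r had 0.0593, Il7r 0.0382, Il4ra 0.0201, Il2ra 0.0145, and Il9r was listed without reads. Il7r, which lymphoid progenitors need, had 28 reads over the 12 libraries, an interval of 0.0253 to 0.0551 CPM per kilobase. Alongside Il10rb, Il22ra1 was high, the lambda interferon chain Il28ra had 0.482 CPM per kilobase and Il10ra, the IL-10 binding chain, had no read. Of the chains that pair with Csf2rb, the IL-3 chain Il3ra stood at 0.111 CPM per kilobase from 52 reads and the IL-5 chain Il5ra had 3 reads.

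In the IL-1 family the accessory chain Il1rap stood at 0.709 CPM per kilobase, Il18rap at 0.646 and the IL-1 receptor Il1r1 at 0.266. The IL-18 chain Il18r1 had 0.193, the IL-33 receptor Il1rl1 0.0367 and the IL-36 receptor Il1rl2 0.0149 CPM per kilobase. Except for Il1rap, these genes lie with the decoy Il1r2 in 1 run of 6 members on chromosome 1 (chr1:40074079-40551705), in which all 6 had reads and 2, Il1r1 and Il18rap, were above 1 CPM. Of the other receptors, Il12rb2 had 719 reads, while its partner Il12rb1 had 1 read and Il23r had 1.

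The ligands were led by the TNF family. Tnfsf12, which encodes TWEAK, had 4.76 CPM per kilobase (interval 4.49 to 5.05) and Tnfsf14, which encodes LIGHT, 4.49 (interval 4.25 to 4.74), and the intervals overlapped. Tnfsf12 shares 46.8% of its 50-base words with the readthrough gene Tnfsfm13, and its neighbour Tnfsf13 (APRIL), which shares 57.3%, was listed without reads. Tnfsf9 (the 4-1BB ligand) stood at 0.806 CPM per kilobase and Tnfsf10 (TRAIL) at 0.288. Tnfsf15 had 0.266. BAFF (Tnfsf13b), a survival factor for B cells, had 9 reads, and Tnf itself was listed without reads.

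Only 3 of the 39 interleukin ligands were above 1 CPM. Il18, an IL-1 family cytokine made as a precursor, had 1.97 CPM per kilobase (interval 1.76 to 2.20). Il17d had 1.05 and Il15, which supports NK cells, 0.850. The 95% intervals of Il17d and Il15 overlapped, and their order turned by coding length, where Il15, at 3.95 CPM per kilobase, also passed Il18 at 3.53. Il18bp, the soluble antagonist of IL-18, stood at 1.25 CPM per kilobase and was the only one of 6 decoys and antagonists above 1 CPM. The IL-36 ligand Il1f9 had 0.366 and Il27 0.186 CPM per kilobase. Of the ligands named whatever their level, Il11 had 26 reads over all 12 livers, Il10 22, Il6 12, Il1b 11 and Il1a 6. The lymphoid growth factor Il7 had 13 reads and the macrophage growth factor Il34 had 1.

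Ligands without any read were Il3, Il5, Il12b, Il17a, Il17b, Il19, Il20, Il21, Il22, Il24, Il25, Il28a, Il28b, Il31, Il1f6, Il1f8, Il1f10, Tnf and Tnfsf13. The IL-36 receptor antagonist Il1f5 had none either. They include 3 of the 4 members of the run Il24, Il20, Il19 and Il10 on chromosome 1 (chr1:130882074-131024974), where Il10 alone had reads. On chromosome 2 (chr2:24153161-24351494), Il1f8, Il1f6, Il1f5 and Il1f10 had none and Il1f9 and Il1rn did. On chromosome 11 (chr11:53602982-53725106) Il4 had 20 reads, Il13 2 and Il5 none. Il22, Il28a and Il28b share 41.0%, 31.7% and 38.8% of their 50-base words with near copies, so a 0 there is uncertain. The members named for an interleukin receptor but without a known interleukin to bind (Il1rapl1, Il1rapl2, Il17rd) and the enzyme Il4i1 had 1 to 5 reads.

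Set side by side, 38 ligands and their receptors gave 4 pairs with the ligand and every receptor chain above 1 CPM. Each ligand was set against 1 receptor, also where it has others, so the counts depend on that choice. TNF, for example, was set against Tnfrsf1a and not Tnfrsf1b. They were LIGHT with Tnfrsf14 (4.49 and 5.03 CPM per kilobase), TWEAK with Tnfrsf12a (4.76 and 0.570), IL-15 with a lowest chain, Il15ra, of 0.399 against 0.850 for the ligand, and TRAIL with Tnfrsf10b (0.288 and 0.356). In 7 pairs every chain was above 1 CPM and the ligand was not. Of these, TNF, IL-22, IL-24 and IL-28A had a ligand without reads, and IL-1 beta, IL-27 and RANKL had a ligand with reads. The reverse, a ligand above 1 CPM and a chain that was not, held for IL-18, whose chain Il18r1 was at 0.928 CPM, and for the 4-1BB ligand. Some 95% intervals included 1 CPM, namely those of Il18r1 (0.782 to 1.09 CPM), Tnfsf9 (0.888 to 1.21) and Tnfsf15 (0.747 to 1.05). That of Tnfrsf12a in the TWEAK pair did too (0.946 to 1.28). The classes of these pairs are thus not resolved by counting error. With the prior left in, Il18r1 stood at 1.08 CPM. The remaining 25 pairs had neither. The highest receptor in the absence of reads for its ligand was that of TNF. A pair is a statement on RNA in 1 organ, since ligands can reach the liver in blood and 1 average cannot say whether the same cells hold both.

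**Figure D4:**
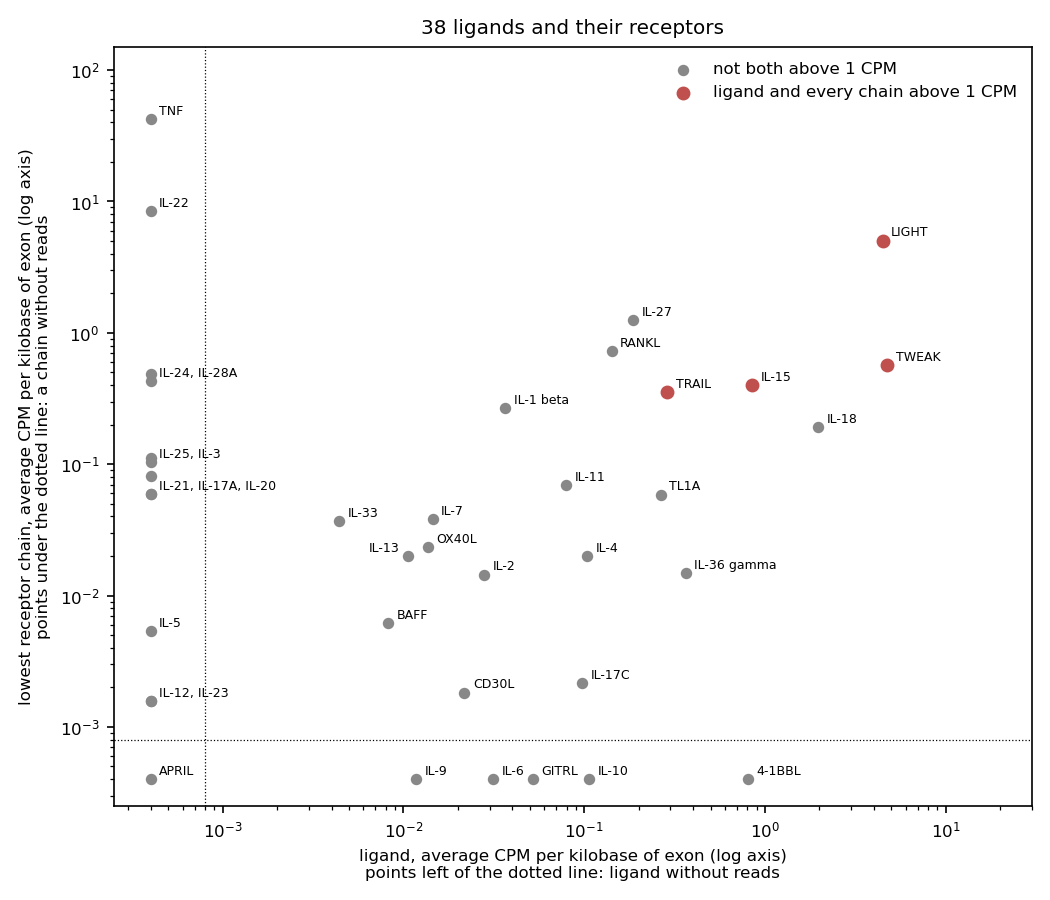
Ligand level (horizontal log axis) against the level of the lowest chain of its receptor (vertical log axis), both as average CPM per kilobase of exon, for 38 pairs, with genes without reads set beyond the dotted lines. LIGHT, TWEAK, IL-15 and TRAIL, in red, had ligand and receptor above 1 CPM, while TNF and IL-22 sit at the upper left with a high receptor and no ligand read.

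Of 29 genes that carry the signal of these receptors inside the cell, 16 were above 1 CPM and 3 had no read. Over all protein-coding rows, 43.7% were above 1 CPM and 77.6% had reads. Among the JAK kinases Jak1, used by most of the interleukin receptors above, stood at 394 CPM, Jak2 at 3.38 CPM, Jak3 at 0.636 CPM and Tyk2 at 0.349 CPM. Of 7 STATs, Stat6 had 108 CPM, Stat2 4.76 CPM and Stat5b 2.89 CPM, while Stat3 and Stat4 were listed without reads. For the IL-1 family, Tollip had 161 CPM and Myd88 44.7 CPM, with 4 of 7 adaptors above 1 CPM. For TNF receptors, Birc2 had 63.4 CPM, Fadd 35.1 CPM and Tradd 24.0 CPM, with 6 of 11 above 1 CPM and Traf3 without reads. These values are in CPM without length and order no gene against another.

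Ebi3, the secreted partner of Il27 in the cytokine IL-27, stood at 10.8 CPM. Of 5 further receptor chains under other symbols 1 was above 1 CPM, Csf2rb2 at 1.58 CPM, and Csf2rb, the common beta chain, was at 0.140 CPM. Of 13 TNF family ligands and receptors under other symbols, 3 were above 1 CPM, the lymphotoxin beta receptor Ltbr (84.1 CPM), Ngfr (22.6 CPM) and Fas (6.06 CPM). The Fas ligand Fasl, Cd40, Cd40lg and Cd70 were listed without reads, and Lta stood at 0.280 CPM.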

How the data were processed

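Per the submitters' processing notes and the study's methods, the authors used cutadapt 1.2.1, the aligner Subread (version 1.3.6-p1, genome mm10), biomaRt for gene names and edgeR, whose version is not given in the sources used here. The value used, deposited by the authors, was edgeR's average log2 CPM per gene over the 12 libraries, which pools both diets. The 8 deposited columns of fold changes, p-values and adjusted p-values compare the diets and were not used. With no value per liver, no diet test, SD or replicate check was run. Depth was recovered from the lowest average, shared by 11091 rows and taken as 0 reads with a prior count of 2, which the sources do not state. That gave a mean effective library of 13129752 reads, and 99.7% of the 4222 rows between 1 and 10 reads lay within 0.1 of a whole read. The prior was taken because it makes the lowest rows whole reads, so that share is no separate check on it. In libraries simulated with the same prior, recovered read totals had a median error of 0.54%. The simulation does not test the choice of the prior. CPM below has the prior removed, and per kilobase means the union of exons in GENCODE M21 (GRCm38), which matched all 116 members. Intervals are exact 95% Poisson intervals on summed reads and cover counting error only. Genes were named by their level within each role group plus a fixed list, and the members and lists were chosen with earlier results of these data known. Upstream windows came from RefSeq (GRCm38.p6). Python 3.11.15, pandas 2.3.3 and scipy 1.17.1 were used.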

Additional observations from a re-analysis of the deposited data

How the results depend on the processing

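The number of members with reads (89) was 61 when at least 12 reads over the 12 libraries were asked for, and the number above 1 CPM (32) was 35 at 0.5 CPM, 23 at 2 CPM and 34 with the prior count left in. The median level of the members with reads, 0.190 CPM, rose to 0.342 CPM with the prior left in, as the prior is added to every gene, and to 1.10 CPM with at least 12 reads, as the low genes are dropped. The median of the named members with reads, 0.717 CPM per kilobase of exon, was 0.935 per kilobase of the longest transcript and 2.28 per kilobase of coding sequence, which is shorter. Each of the 3 lengths left the highest member by CPM in place in 5 of 7 role groups, and 4 groups kept it under all of them: Il10rb passed Il6st by every length, Tnfsf12 passed Tnfsf14 by exons and longest transcript, and Il15 passed Il18 by coding length. An alternative chosen after seeing the data, members with 1 coding transcript, put 33.3% above 1 CPM. The other average column equals the one used. No paired analysis was possible because the table holds 1 average per gene; the comparison of diets and its alternatives were not run for the same reason. Precision between livers is unknown.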
